A study of Homo sapiens with 14 samples.

Results

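The regions described here were called as peaks of phosphorylated JUN (p-JUN) in both libraries of LX-2 cells cultured on a soft matrix and in neither of the 2 libraries labelled stiff. LX-2 is an immortalised human hepatic stellate cell line, and p-JUN was profiled by CUT&Tag, in which antibody-tethered Tn5 transposase cuts and tags the DNA around the bound protein for sequencing. Cells were kept for 2 days on soft (2K in the titles) or stiff matrix, and cells cultured in this way were also profiled for H3K4me3 and H3K27me3 with 2 libraries per matrix and for H3K27ac with 1 merged list per matrix. The 4 p-JUN peak lists were merged wherever peaks shared at least 1 bp on the autosomes, X and Y, which gave 61411 regions. The members were chosen by the calls of these same lists: 1066 regions were called in both soft lists and in neither stiff list, 1.74% of all regions, and are named soft-only regions below. The reverse set, called in both stiff lists alone, held 1690 regions, and 40433 regions were called in all 4 libraries.

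All groups were LX-2 of wild type genotype, with no drug in the labels, so the results hold for 1 cell line. The titles of the p-JUN libraries labelled stiff carried TCP, the study's abbreviation for tissue culture plastic, where the stiff histone libraries carried 40K. Soft-only p-JUN regions are therefore soft against libraries labelled stiff whose substrate may be plastic, and their setting beside histone peaks of the 40K matrix has that limit. A promoter H3K4me3 peak in all 4 libraries was found for 6 of 8 stellate cell and myofibroblast markers (ACTA2, COL1A1, PDGFRB, VIM, TAGLN and SPARC) and for 0 of 4 hepatocyte and 0 of 3 endothelial markers. EPCAM of 3 cholangiocyte markers and CD14 of 3 immune markers also carried one.

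JUN is a subunit of AP-1, a dimer of JUN and FOS or ATF family proteins, and phosphorylation of its activation domain by JNK raises its activity. The AP-1 motif counted here is the 7-base TGACTCA, which differs from its reverse complement only in the middle base. In stellate cells AP-1 is known for its part in the change from a quiescent, lipid-storing cell to a collagen-secreting myofibroblast. H3K4me3 marks active promoters, H3K27ac marks active promoters and enhancers, and H3K27me3 marks chromatin repressed by Polycomb.

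Sequences near the summits of selected members are given below. In the first set each window is centred on the AP-1 motif, which lay 3 to 43 bp from the summit. The first set shows 9 of the members with an AP-1 motif given as 101 bases of the GRCh37 plus strand around the motif nearest to the summit, with TGACTCA or its reverse complement TGAGTCA in capitals. They are members from the 10 best-ranked (PALLD, WSCD1), members next to contractile, TGF-beta or inflammatory genes (MYLK, TGFB2, IL1B, NFKBIA), a member under an H3K27ac peak of the soft list (GRB10) and 2 cytokine subunit promoters (EBI3, IL23A).
PALLD (chr4:169526698-169526798): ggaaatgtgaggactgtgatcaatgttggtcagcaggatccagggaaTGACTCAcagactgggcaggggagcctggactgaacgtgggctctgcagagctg
WSCD1 (chr17:6126679-6126779): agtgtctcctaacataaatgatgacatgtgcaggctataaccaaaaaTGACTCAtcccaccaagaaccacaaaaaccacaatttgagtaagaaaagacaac
MYLK (chr3:123537768-123537868): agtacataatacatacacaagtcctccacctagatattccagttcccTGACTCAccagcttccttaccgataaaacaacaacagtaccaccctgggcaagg
TGFB2 (chr1:218558123-218558223): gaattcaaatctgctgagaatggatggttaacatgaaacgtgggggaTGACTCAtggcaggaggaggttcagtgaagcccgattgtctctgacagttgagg
IL1B (chr2:113627200-113627300): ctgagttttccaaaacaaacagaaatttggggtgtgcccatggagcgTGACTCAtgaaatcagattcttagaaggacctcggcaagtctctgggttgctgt
NFKBIA (chr14:35866645-35866745): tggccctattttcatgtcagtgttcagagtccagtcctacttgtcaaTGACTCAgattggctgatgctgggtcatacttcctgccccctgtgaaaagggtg
GRB10 (chr7:50894549-50894649): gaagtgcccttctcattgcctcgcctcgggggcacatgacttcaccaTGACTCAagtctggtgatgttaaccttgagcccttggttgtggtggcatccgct
EBI3 (chr19:4229355-4229455): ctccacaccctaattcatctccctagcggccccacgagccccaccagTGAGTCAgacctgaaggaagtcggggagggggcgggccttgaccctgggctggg
IL23A (chr12:56732544-56732644): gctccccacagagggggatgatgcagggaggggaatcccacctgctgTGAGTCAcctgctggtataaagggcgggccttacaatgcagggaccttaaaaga

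For comparison, 3 strongly called members without the 7 letters near the summit are shown, centred on the summit. They lie in an intron of CTNNA2, in a coding exon of FN1 and in an intron of MTAP.
CTNNA2 (chr2:80716985-80717085): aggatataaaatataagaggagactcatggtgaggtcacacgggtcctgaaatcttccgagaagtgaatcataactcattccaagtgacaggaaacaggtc
FN1 (chr2:216232601-216232701): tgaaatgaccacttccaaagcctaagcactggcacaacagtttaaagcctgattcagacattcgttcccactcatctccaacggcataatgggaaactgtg
MTAP (chr9:21832198-21832298): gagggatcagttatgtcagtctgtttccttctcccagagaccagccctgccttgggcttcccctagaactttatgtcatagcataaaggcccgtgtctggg

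The AP-1 motif was found within 50 bp of the summit in 274 of 1066 soft-only regions, 25.7% (95% Wilson interval 23.2 to 28.4), against 1.83% in windows of the same size 1 kb away. The share was 30.6% over the windows of all p-JUN regions, 34.8% (34.4 to 35.3) in regions of all 4 libraries, 21.6% (20.2 to 23.0) in the 3271 regions called in 1 soft and 1 stiff library, 22.2% (20.8 to 23.7) in the 2993 called in both soft and 1 stiff library and 23.8% (21.9 to 25.9) in stiff-only regions. Soft-only regions thus held the motif less often than regions of all 4 libraries, with intervals that did not overlap, and more often than regions of 1 soft and 1 stiff library by a narrow gap between intervals. Over all regions, their interval overlapped those of stiff-only regions and of regions of both soft and 1 stiff library. Regions over 1 kb from a protein-coding start site were also compared. There the share was 30.5% (27.5 to 33.7) in soft-only and 24.3% (22.2 to 26.4) in stiff-only regions. This order reversed without soft replicate 1 (26.8% against 27.97%) or soft replicate 2 (24.6% against 25.4%), and held when either stiff replicate was left out. Such regions of both soft and 1 stiff library had 30.9% (28.9 to 32.9). The intervals cover counting error only, since regions are not replicates. Without stiff replicate 1, which stands apart as described below, the soft-only set grew to 1742 regions, with AP-1 in 30.7% of them all.

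A difference in sequence between the 2 matrix-specific sets was found for the TEAD motif (GGAATG, or CATTCC on the other strand), bound by the partners of the mechanosensitive coactivators YAP and TAZ. It lay within 50 bp of the summit in 59 soft-only regions, 5.53% (4.32 to 7.07), no more often than 1 kb away (5.63%). In stiff-only regions it was found in 223 of 1690, 13.2% (11.7 to 14.9), against 5.50% 1 kb away. Regions of 1 soft and 1 stiff library held it in 9.11% and regions of all 4 libraries in 9.99%. In regions of both soft and 1 stiff library, the class nearest to the members, it was 7.72% (6.82 to 8.73), with an interval that overlapped that of the soft-only regions. The difference remained among distal regions, those over 1 kb from a protein-coding start site, with 6.24% (4.804 to 8.08) in soft-only and 13.5% (11.9 to 15.3) in stiff-only regions, and 9.20% (8.03 to 10.5) in regions of both soft and 1 stiff library. Since TEAD letters depend on base composition and soft-only regions were richer in G and C (median 51.5% against 44.6%), distal regions were also compared within 6 GC bands. The soft-only share was below that of regions of all 4 libraries in 6 of 6 bands and below that of stiff-only regions in 5 of 6, the exception being windows above 60% GC (3.74% against 2.35%). The counts were small, with 4 to 16 soft-only regions holding the motif per band. In most bands the soft-only interval overlapped those of both other classes, so the order of the shares is a description. GGAATG ends in the letters that begin TGACTCA, so the motifs can share bases, as at PALLD.

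Regions called in a single library, which are not members, were ordered the same way. The TEAD motif was present in 5.68% of the 2484 regions of soft replicate 1 alone and 7.23% of the 1203 of soft replicate 2, against 8.61% of the 1359 of stiff replicate 1 and 10.1% of the 3637 of stiff replicate 2. The 2 soft values were below both stiff values (6.45% against 9.38% on average). The single-library regions come from the same p-JUN calls that the rule used, so this order is a description and no test. The AP-1 shares of the same regions, 19.2% and 19.1% against 27.7% and 17.5%, overlapped between matrices. Leaving out any 1 of the 4 p-JUN libraries kept the soft-only TEAD share between 5.66 and 6.62% and the stiff-only share between 10.5 and 12.5%. The TEAD motif was singled out after its values had been seen. Within the soft-only set the share was 8.99% (6.12 to 13.0) among the 267 best-ranked members and 4.14 to 4.87% in the 3 following groups of 266 or 267, so the low share lay in the weaker members.

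**Figure D1:**
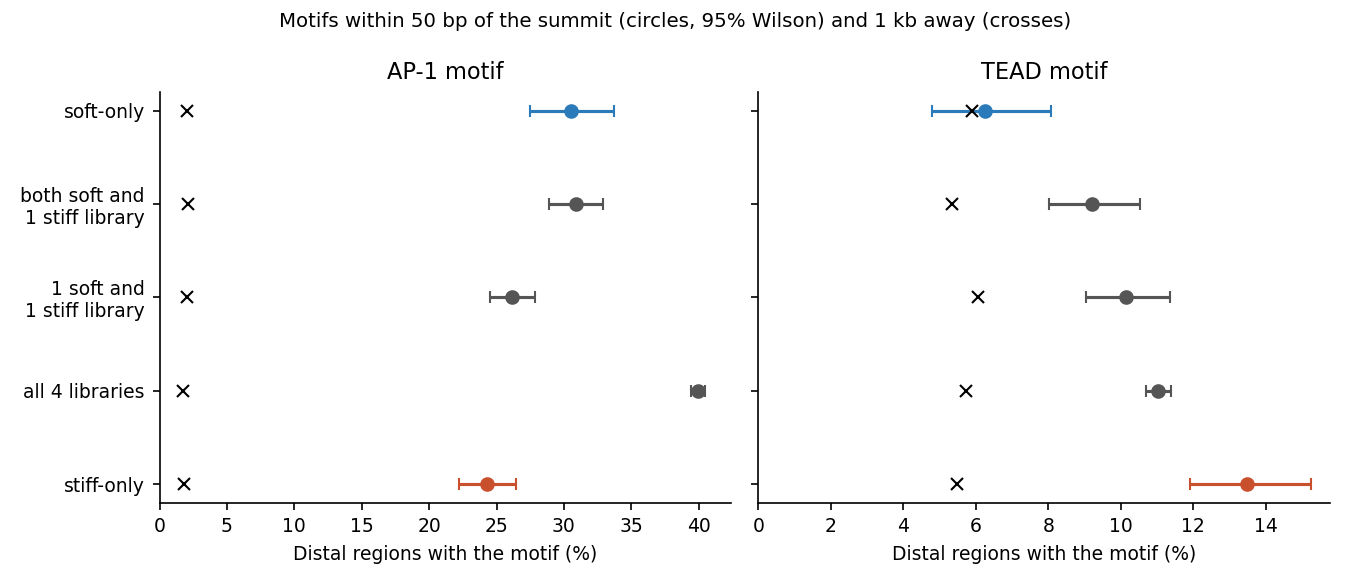
Share of distal p-JUN regions (x axis, %) with an AP-1 motif (left) or a TEAD motif (right) within 50 bp of the summit, for 5 classes of regions by the libraries that called them. Circles are shares with 95% Wilson intervals and crosses the share 1 kb away, and the soft-only TEAD share of 6.24% lies near its cross at 5.89% while the stiff-only share of 13.5% does not.

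Soft-only regions were weak peaks of their lists. For each peak the fragments at its summit were computed from the deposited fold and p, and the members held a median of 31 fragments in soft replicate 1 (range 16 to 259) and 27 in soft replicate 2 (range 15 to 208), where the medians of all peaks in these lists were 64 and 60. Their median −log10 q was 12.7, close to the 12.5 of regions called in 1 soft and 1 stiff library and below the 44.2 of regions of all 4 libraries. At the threshold, 126 members had −log10 q under 10 in both soft libraries, and the lowest values were 5.44 and 5.72. Just outside lay 2993 regions that a single stiff library also called. The stiff peak held a median of 29 fragments where that library was replicate 1 (673 regions) and 31 where it was replicate 2 (2320 regions). The weakest stiff peaks, with −log10 q under 6, held a median of 18 or 20 fragments, and signal of the stiff libraries below a call was not analysed here. The nearest peak of a stiff list lay within 500 bp of 39 members and within 1 kb of 103, and the median distance was 9374 bp.

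**Figure D2:**
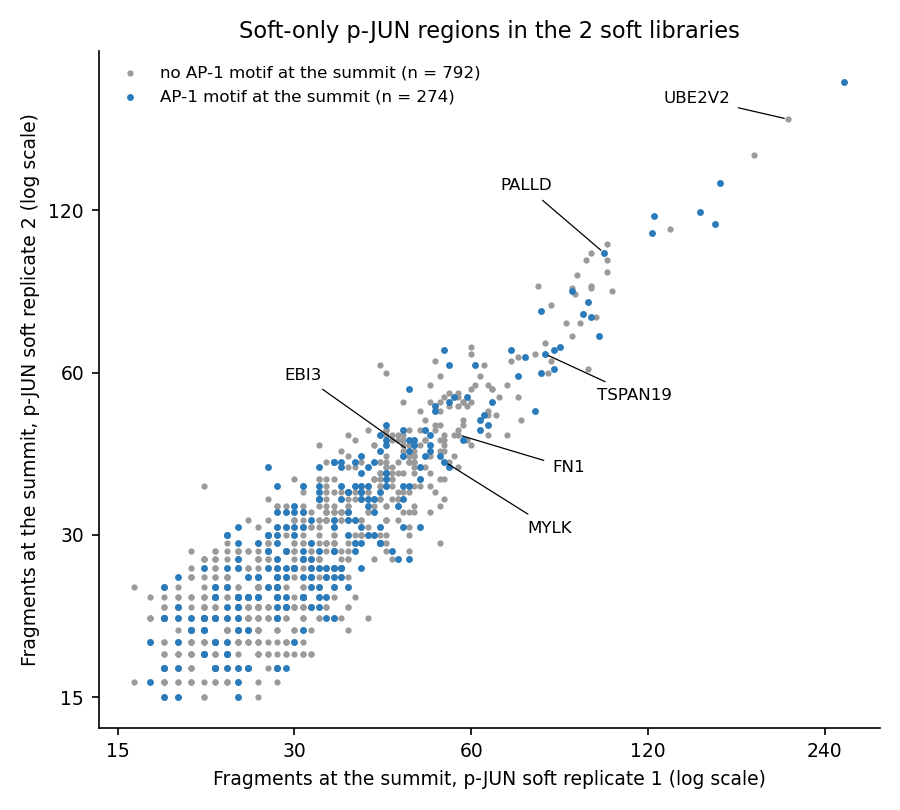
Fragments at the summit of each of the 1066 soft-only regions in soft replicate 1 (x axis) and soft replicate 2 (y axis), both on log scales. Blue points (n = 274) have an AP-1 motif within 50 bp of the summit and grey points (n = 792) do not, and most members lie at the weak end, with medians of 31 and 27 fragments.

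Stiff replicate 1 stood apart among the 4 p-JUN libraries. It listed 15.7% of its regions at promoters against 17.5 to 18.2% in the others, and regions called in the other 3 libraries but not in it were promoters in 37.1% of cases with a median GC content of 56.4%. The soft-only set moved with this library at promoters: without stiff replicate 2 the set was 3405 regions with 31.9% at promoters, and without stiff replicate 1 it was 1742 regions with 17.0%. The part of sequencing depth in these calls was not tested, since only peak lists were used.

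The 10 best-ranked members, ordered by the poorer of their 2 ranks, were distal with 1 exception and overlapped no H3K4me3, H3K27ac or H3K27me3 peak in any list. TSPAN19, a tetraspanin gene, had its member 994 bp downstream of a start site with 80 and 65 fragments in soft replicates 1 and 2 over local backgrounds of 3.23 and 2.70. The member in an intron of CTNNA2, the neuronal alpha-catenin, held 89 and 86 fragments, and the one 142 kb from WSCD1 held 95 and 81. The TSPAN19 site lay 507245 bp from the nearest stiff peak, the CTNNA2 site 6120 bp and the WSCD1 site 8578 bp.

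Introns of MARCHF3, a membrane-bound ubiquitin ligase gene, and of SMIM14 held members with 80 and 68, and 96 and 76 fragments. PALLD, which codes for the actin-bundling protein palladin, had a member in an intron with 101 and 100 fragments and a fold of 6.57 and 7.69. FN1, the fibronectin gene, had one in a coding exon with 57 and 46. Replicates 1 and 2 were close to each other at each of these sites, which the rule and the ranking by both replicates selected for. The SMIM14 and PALLD members had a stiff peak 441 and 359 bp away, while the nearest stiff peak to the FN1 exon lay 42476 bp away. The rest of the 10 were assigned to AP001055.1 (74 and 64 fragments), UBE2V2 (208 and 177, over the high backgrounds of 61.2 and 54.3) and DCAF4L2 (72 and 59). They lay 19.6, 272 and 101 kb from the start sites of these genes.

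The stronger members differed from the weaker ones in place and motif. Of the 267 best-ranked members 44.2% (38.4 to 50.2) had the AP-1 motif and 9.36% lay at promoters, while the 3 following groups of 266 or 267 had the motif in 18.0 to 21.8% and lay at promoters in 19.9 to 26.97%. Any of the 3 histone marks was present at 14.98% (11.2 to 19.8) of the first group and at 35.3 to 42.7% of the others. Rank comes from the same libraries as the rule, so these shares are a description.

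Promoters, taken as summits within 1 kb of a protein-coding start site, made up 217 members, 20.4% (18.1 to 22.9). The share was 17.2% (16.8 to 17.6) in regions of all 4 libraries, 21.0% (19.6 to 22.4) in regions of 1 soft and 1 stiff library and 4.44% (3.56 to 5.53) in stiff-only regions. It was 31.4% (29.7 to 33.1) where both soft and 1 stiff library made the call. Without stiff replicate 1 the stiff-only share was 12.2%, against 17.0% for soft-only regions. Soft-only regions were thus at promoters about as often as regions split between matrices, and stiff-only regions least often. Among the members, 388 lay in introns (36.4%), 289 between genes (27.1%), 142 in non-coding genes (13.3%), 20 in untranslated exons and 10 in coding exons. The median distance to a start site was 19.2 kb. Of the promoter members 15 had an AP-1 motif (6.91%), against 259 of the 849 distal members (30.5%), and 60 had the GC box GGGCGG or CCGCCC (27.6%) against 33 distal ones (3.89%).

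The best-ranked promoter members after TSPAN19 were at EBI3, CAST, CHEK2, IL23A, SAP30BP, ZFTA and IRF2BP1. EBI3, a subunit of IL-27 and IL-35, had 47 and 43 fragments 158 bp upstream of its start site, and IL23A, the p19 subunit of IL-23, had 55 and 40 fragments 77 bp upstream. CAST, the calpain inhibitor calpastatin, had 43 and 37 fragments 15 bp past a start site. All 3 carried an AP-1 motif at the summit and lay under no histone peak of any list.

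CHEK2, a DNA damage checkpoint kinase, had 37 and 33 fragments and SAP30BP 91 and 91, both without the motif. ZFTA (49 and 40 fragments, AP-1 motif) and IRF2BP1 (42 and 35) lay under H3K4me3 in 4 of 4 libraries and under H3K27ac, ZFTA in the soft list alone and IRF2BP1 in both. None of these promoters had a stiff p-JUN peak within 1 kb, the closest being 1651 bp from the SAP30BP member.

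H3K4me3, which the rule did not use, showed no difference between matrices beyond the spread of its libraries. On soft matrix its peaks overlapped 23.8 and 23.1% of the members, and on stiff matrix 22.98 and 24.1% (difference −0.0938 percentage points, 23.5% ± 0.53 against 23.5% ± 0.80, SD, n = 2 each, exact permutation p = 1.0, smallest possible 0.33). The soft and stiff values overlapped. Over all p-JUN regions the shares were 20.1 and 20.7% on soft and 20.5 and 21.4% on stiff. Among the 217 promoter members the soft shares were 80.6 and 79.3% and the stiff shares 78.3 and 81.6%. All 4 libraries marked 232 members (21.8%, against 18.6% of all p-JUN regions) and none marked 794 (74.5%, against 77.0%). Only 6 members (0.563%) had H3K4me3 in both soft libraries alone, where the background over all p-JUN regions was 0.186%, and 5 (0.469%) in both stiff libraries alone, where it was 0.458%. For the 232, the peak's median place in its list, counted from the strongest, was 41.5 and 41.0% for the soft libraries and 43.5 and 39.7% for the stiff libraries (exact permutation p = 1.0). A p of 1.0 in 2 libraries against 2 does not show that the mark did not differ.

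H3K27ac was more often present in the soft list. It overlapped 151 members on soft, 14.2% (12.2 to 16.4), and 69 on stiff, 6.47% (5.15 to 8.11), with 1 list per matrix and so no replicate error. Both shares were below those over all p-JUN regions, 26.85% on soft and 20.09% on stiff. Regions of 1 soft and 1 stiff library, with a similar median −log10 q, had shares no higher than the members, 11.2% and 6.21%. In the soft list alone it was found at 99 members, 9.29%, where the background over all p-JUN regions was 9.64%, and in the stiff list alone at 17 members, 1.59%, where it was 2.88%. The soft list held more H3K27ac peaks than the stiff list (18238 against 13322), and the soft-alone share of the members was close to the background. For each member with H3K27ac in the stiff list alone, 5.82 had it in the soft list alone, against 3.35 over all regions. The ratio was 4.02 in regions of 1 soft and 1 stiff library and 1.26 in stiff-only regions. Regions of both soft and 1 stiff library, the class nearest to the members, had 3.74. The members' ratio rests on the 17 with the stiff list alone and has no interval. With both H3K27ac lists held to equal length, the shares at the members were 9.29% and 6.47%, a difference of 2.81 points in place of 7.69. Over all p-JUN regions the difference was 6.76 points at full length and was not computed at equal length. H3K27ac was absent from both lists at 898 members (84.2%), against 70.3% of all p-JUN regions and 87.2% of regions of 1 soft and 1 stiff library.

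Among the 8 best-ranked members with H3K27ac in the soft list alone, MYLK had the strongest H3K27ac peak. In an intron of MYLK, myosin light chain kinase, lay a member with 54 and 41 p-JUN fragments under an H3K27ac peak of 54 fragments. The member in an intron of MTAP, which salvages methylthioadenosine, held 102 and 97 p-JUN fragments under an H3K27ac peak of 33. At GRB10, a growth factor receptor adaptor, it held 33 and 36 under 10, and at ATP9A 46 and 31 under 27. MYLK, GRB10 and ATP9A carried the AP-1 motif. SORD, BBS12 and SMN2 were also among the 8, with 27 to 70 p-JUN fragments and H3K27ac peaks of 18 to 26, and the summit sequences at SMN2 and SORD occurred 8 and 2 times in the genome.

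The 5 best-ranked members with H3K27ac in the stiff list alone included 3 promoters (RPS6, SPATA13 and POLR2D). The members were at RPS6 (24 and 27 fragments), SPATA13 (30 and 23), POLR2D (22 and 22), ACACB (25 and 21, within an intron of UNG) and C22orf42 (54 and 46). All had H3K4me3 in 4 of 4 libraries and none had the AP-1 motif.

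H3K27me3 was rare. Its soft libraries marked 28 and 14 members (2.63 and 1.31%) and its stiff libraries 15 and 17 (1.41 and 1.59%), a difference of 0.469 percentage points between means of 1.97% ± 0.93 and 1.50% ± 0.13 (SD, n = 2 each, exact permutation p = 1.0). The stiff values lay between the 2 soft values, and without soft replicate 1, whose list was the longest, the difference was −0.188. The shares over all p-JUN regions were 1.09 and 0.596% on soft and 0.603 and 0.622% on stiff. Only 2 members (0.188%) carried the mark in both soft libraries alone, against a background of 0.0700%, and none in both stiff libraries alone, against 0.0179%.

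The 16 members with H3K27me3 in both libraries of a matrix included 8 whose summit sequence had more than 1 copy in the genome and 4 within 1 Mb of a long assembly gap. The best-ranked was 555 kb from ZNF33B (60 and 67 fragments), in sequence with 8 copies. Others were near DYTN (25 and 23), SPATA31A7 (47 and 41, 2 copies) and in an intron of B4GALNT3 (32 and 18, 3 copies). Reads from copied sequence can be placed at the wrong copy, so these sites are uncertain. Over all members 66 summits (6.19%) had more than 1 copy, against 5.81% of all p-JUN regions.

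**Figure D3:**
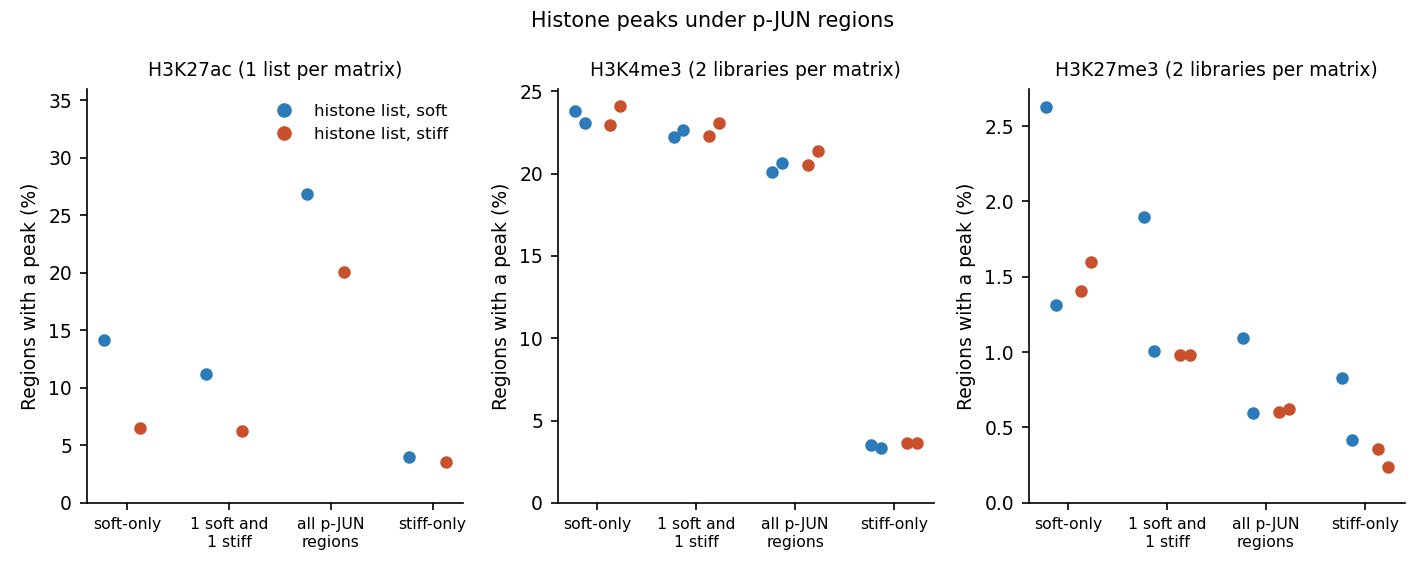
Share of p-JUN regions (y axis, %) that overlapped a peak of H3K27ac (left), H3K4me3 (middle) or H3K27me3 (right), 1 point per histone list, blue for soft and orange for stiff lists. At soft-only regions the H3K27ac points were 14.2 and 6.47% while the 4 H3K4me3 points lay between 22.98 and 24.1%.

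Each region was assigned to the nearest protein-coding start site, and 976 of 19794 protein-coding genes (4.93%) were nearest to a soft-only region, against 1429 (7.22%) for stiff-only regions. Most of these genes (897) had 1 member. Because genes with many p-JUN regions also have more chances of a member, each gene list is described by the share of its p-JUN regions that were soft-only, to be read against 1.74%, and the 12 lists together make no test.

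The contractile and actin cytoskeleton list held the highest share, 7 of 189 regions, 3.70% (1.81 to 7.45), with 2 stiff-only regions, and 5 of its 32 genes had a member. MYLK had a further intronic member 2.40 kb from a start site with 40 and 33 fragments. CALD1, the gene of the actin- and myosin-binding protein caldesmon, had intronic members with 31 and 22, and with 25 and 21 fragments. FLNA, the actin cross-linker filamin A, had one 10967 bp from its start site with 54 and 43, in sequence with 2 copies.

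ACTN1, an alpha-actinin, had a member 18.1 kb away with 25 and 26 fragments, and ACTG2, smooth muscle gamma-actin, one 2.11 kb upstream with 26 and 23. Of the 7 members 4 overlapped H3K27ac in the soft list (both at MYLK, FLNA and 1 at CALD1). The share was 14.2% over all members and 26.85% over all p-JUN regions, and it was not counted among the list's 189 regions. Of these 4, 3 also overlapped H3K27ac in the stiff list, the exception being the first MYLK site. None of the 7 lay at a promoter and 1 had the AP-1 motif. The 2 stiff-only regions of the list were at CFL1 and MRTFA.

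No member was found in the YAP and TEAD list. No soft-only region was nearest to any of its 21 genes (0 of 159 regions, where a limit of 3 regions allows a share of up to 1.89% and the Wilson interval up to 2.36%, which includes the 1.74% of all regions), while 8 regions (5.03%, 2.57 to 9.61) were stiff-only, an interval that includes the 2.75% of all p-JUN regions that were stiff-only. These lay at CCN2, a matricellular YAP target, AMOTL1 and AMOTL2, angiomotin-like regulators of YAP, the kinase gene LATS2, TEAD1, VGLL3 and, with 2 regions, VGLL4. The difference between the lists was not tested.

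In the extracellular matrix list 6 of 392 regions (1.53%) were soft-only, with members at FN1 as above, at LOX, the collagen cross-linking lysyl oxidase (33 and 35 fragments, in an untranslated exon, AP-1 motif), and near NID1, a basement membrane linker (51 and 53). Upstream of COL1A2, a chain of type I collagen, a member 19.3 kb from the start site held 24 and 23 fragments and overlapped H3K27ac in both lists. Of the 36 genes 5 had a member and 8 a stiff-only region. The matrix protease list had 1 member, at MMP16 (30 and 22).

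TGF-beta and SMAD genes had 5 members among 282 regions (1.77%), at 5 of 24 genes. For the ligands, TGFB2 had one in an intron with 64 and 48 fragments and the AP-1 motif, and INHBA, the activin beta A subunit, one 566 kb away with 32 and 25. For the signal transducers, SMAD2 had 29 and 24 in an intron and SMAD3 26 and 18 at a site 140 kb away. SMAD7, the inhibitory SMAD, had 70 and 66 at a site 10.8 kb upstream with the AP-1 motif and a stiff peak 516 bp away.

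Of the MAP kinase list, the 6 members among 287 regions (2.09%) were nearest to genes of dual-specificity phosphatases and of Sprouty-related inhibitors. DUSP16 had one at its promoter with 48 and 40 fragments, and SPRY4 one 20.2 kb away with 22 and 22. The others were far from the start site by which they were assigned: DUSP6 91.1 kb (19 and 15 fragments), SPRED2 234 kb (42 and 46), SPRY2 255 kb (63 and 62) and DUSP4 264 kb (21 and 23). The DUSP6 site had 2 AP-1 motifs within its 101 bases. The stiff-only regions of this list, 7 in all, were nearest to MAP2K2, MAP2K4, MAP3K4 and MAP3K7 as well as to DUSP10, DUSP16 and SPRY2. How many of the list's p-JUN regions lie nearest to such inhibitors was not counted, and several of its genes code for them.

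In the cytokine list 4 of 120 regions (3.33%) were soft-only and as many stiff-only. The members were assigned to IL1B, an inflammatory cytokine (37 and 36, 32.9 kb away), and to genes of the NF-kappaB pathway. These were the inhibitor NFKBIA (38 and 32, 6.27 kb), the subunit NFKB1 (27 and 26, 61.9 kb) and TNFAIP3 (27 and 21, 162 kb), a deubiquitinase that limits the pathway. IL1B and NFKBIA had the AP-1 motif. Of the AP-1 and ATF list, 3 of 150 regions were soft-only, among them members near MAF, 77.6 kb away (43 and 41), and FOSL2, 168 kb away in an intron of BABAM2 (26 and 20).

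The integrin list had 3 members among 246 regions, in introns of ITGA2 (73 and 49), PTK2, the focal adhesion kinase (19 and 23), and FERMT2, kindlin-2 (44 and 35, 3 copies), and ITGA2 and PTK2 lay under H3K27ac of the soft list alone. Of the quiescence list RXRA (46 and 43, in an intron), ETS2 (45 and 35, 150 kb away), ETS1 (26 and 20, 466 kb away) and GATA6 (29 and 25, at its promoter) had members. Of the cell cycle list 3 of 149 regions were soft-only. They were assigned to CDKN2B, 156 kb away (33 and 21) and 200 kb away (55 and 62, AP-1 motif), and to CDKN1C, 6.655 kb away (44 and 39). In the nervous system adhesion list 6 of 324 regions (1.85%) were soft-only and 21 (6.48%, 4.28 to 9.71) stiff-only, above the 2.75% of all regions. Its soft-only members were assigned to CTNNA2, NCAM2 and SLIT2, at 5.76 to 1074 kb from a start site.

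**Figure D4:**
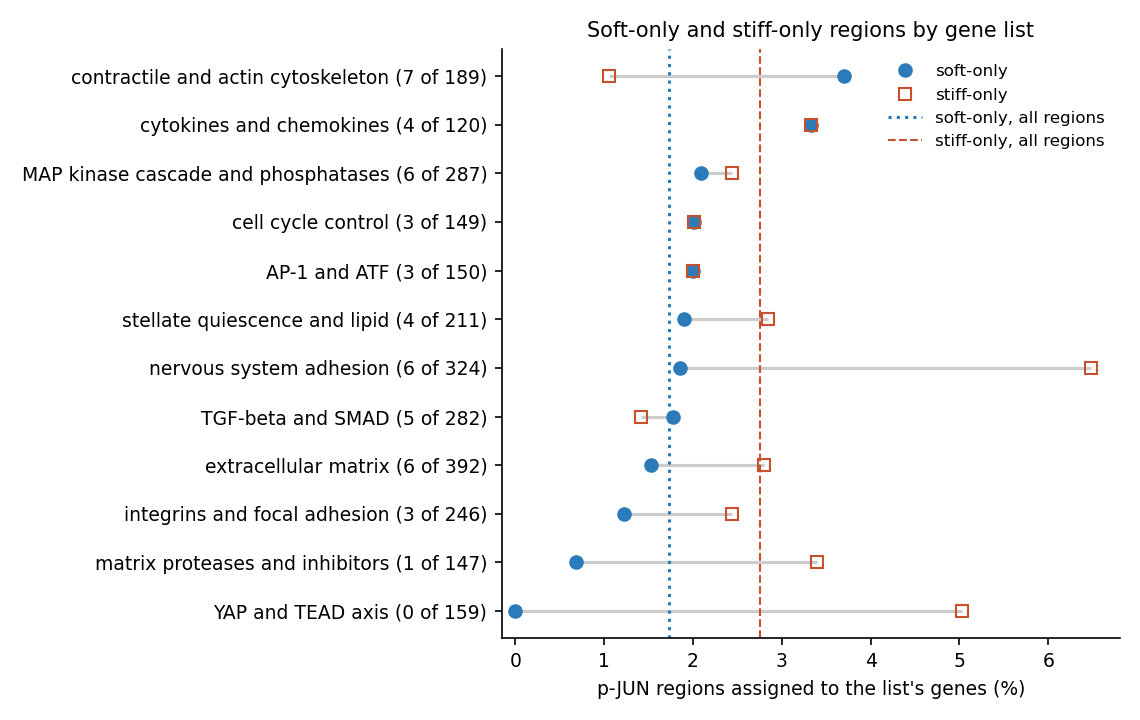
Share of the p-JUN regions assigned to each gene list (x axis, %) that were soft-only (blue circles) or stiff-only (open orange squares), with the count of soft-only regions of all regions in brackets. The dotted blue and dashed orange lines are the shares over all p-JUN regions, 1.74% for soft-only, and the contractile list lies at 3.70% and the YAP and TEAD list at 0.

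Of the gene families, whose intervals all included 1.74% where given here, zinc finger ZNF genes had 18 soft-only regions of 865 (2.08%), cadherins and protocadherins 10 of 599 (1.67%), solute carriers 14 of 1199 (1.17%), TRIM ubiquitin ligases 5 of 158 (3.16%) and replication histones 0 of 78, where a limit of 3 regions allows up to 3.85% and the Wilson interval up to 4.69%. Across the autosomes soft-only regions made up between 1.40% (chromosome 15) and 2.35% (chromosome 19) of p-JUN regions, with overlapping intervals.

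Few soft-only regions lay close together. Another was within 100 kb of 146 members (13.7%) and within 10 kb of 24 (2.25%), and the median distance to the next was 628 kb, where 18.5% of the more numerous stiff-only regions had another within 100 kb. Only 4 chains of at least 3 members spaced up to 100 kb were found. The tightest was near BBS12, a chaperonin-like gene of cilia, where 4 intergenic members spanned 64.9 kb (chr4:123621474-123686338) and formed 4 of the 5 p-JUN regions there. They held 31 and 21, 36 and 27, 61 and 62, and 47 and 56 fragments in order, the second lay under H3K27ac of the soft list alone, and the last 2, under 1 kb apart, each had an AP-1 motif in capitals below.
BBS12 (chr4:123685321-123685421): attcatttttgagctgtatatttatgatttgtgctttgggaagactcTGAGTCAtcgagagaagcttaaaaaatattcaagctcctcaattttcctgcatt
BBS12 (chr4:123686168-123686268): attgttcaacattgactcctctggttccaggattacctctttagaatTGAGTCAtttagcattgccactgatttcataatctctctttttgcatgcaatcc

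The other chains mixed with shared p-JUN regions. At chr19:54372026-54493515 the promoters of MYADM (58 and 53 fragments) and CACNG7 (28 and 24) and a site 1.51 kb from CACNG6 (33 and 34) were 3 of 7 p-JUN regions. At chr13:41582605-41761820, ELF1, WBP4 and KBTBD7 had 3 of 15, and at chr16:66775369-66995336, DYNC1LI2, NAE1, RRAD and CES3 had 4 of 12. None of these 10 members had an AP-1 motif or an H3K27ac peak. Apart from distance, CDH9, a cadherin gene, was nearest to 5 members and BBS12 to 4, and ATXN1, TRIB2, SPATA13, ATP2B1, GATA3 and NCAM2 to 3 each.

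**Figure D5:**
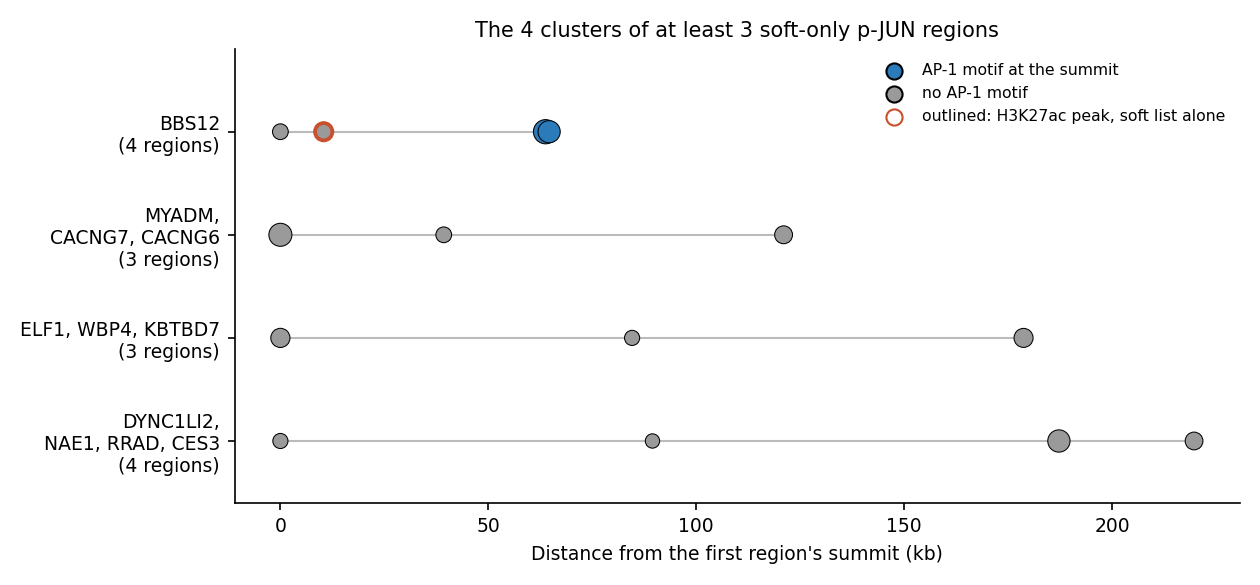
The 4 chains of at least 3 soft-only regions, each drawn by the distance of its summits from the first (x axis, kb). Circle area is proportional to the mean fragments of the 2 soft libraries, blue fill marks an AP-1 motif and an orange outline an H3K27ac peak of the soft list alone, and blue and outlined circles occur only at BBS12.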

How the data were processed

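Peak lists of p-JUN, H3K27ac, H3K4me3 and H3K27me3 CUT&Tag in LX-2 cells were used. The authors used TrimGalore for trimming, Bowtie2 for alignment to hg19, Picard for duplicates and MACS2 for peaks, whose version, options and control are not given in the sources used here. The deposited values per peak are a fold (the ratio of summit to local background) and −log10 p and −log10 q. Mitochondrial peaks (2 to 8 per list) were left out.

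From the fold and −log10 p of each peak, the number of fragments at its summit and the local background were solved with p as a Poisson tail, which gave whole numbers for 100.0% of p-JUN peaks at a relative error under 1e-04. Read totals are unknown. Promoters, nearest genes and exons came from GENCODE release 44 mapped to GRCh37, and copies from counts of the 32 bases at each summit. Shares have 95% Wilson intervals, and libraries were compared by exact permutation tests. Named were the 10 best-ranked members, the 8 best at promoters, the 8 and 5 best with H3K27ac in the soft or stiff list alone, 5 with H3K27me3, the chains, and up to 4 genes per list; further members of the contractile, MAP kinase, TGF-beta and YAP lists were named after their values were seen. A few members that this rule names are not reported here. The members, lists and motifs were chosen with earlier results of these data known. The study describes its sequencing replicates as biological, and how the cultures were separated is not given in the sources used here, so tests measure the spread between libraries. The region and fragment steps were tested on simulated data. Python 3.11.15, pandas 2.3.3, scipy 1.17.1 and pysam were used.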

Additional observations from a re-analysis of the deposited data

How the results depend on the processing

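The soft-only count was 1005 to 1445 with −log10 q of at least 10 in every p-JUN list, lists of equal length, 50% reciprocal overlap or a 500 bp margin, of which 657, 792, 938 and 1027 regions overlapped the original set. It was 657 with the threshold on the soft lists only, where promoters made up 17.2%, AP-1 motifs 29.8% and members with another within 100 kb 9.59%, and 1742 to 3571 without 1 p-JUN library. Leaving out a library gave promoter shares of 17.0 to 31.9%, AP-1 shares of 20.3 to 30.7%, TEAD shares of 5.66 to 6.62%, H3K27ac differences of 4.97 to 7.37 points and neighbour shares of 20.1 to 33.9%. The larger counts follow from asking fewer libraries. Equal list lengths gave 26.9% promoters, 21.96% AP-1 and 16.3% with a neighbour, and reciprocal overlap 24.1% promoters and 18.6% with a neighbour. A 5 kb promoter window gave 30.2%, motifs anywhere in the region 39.9% for AP-1 and 22.05% for TEAD, an alternative chosen, like all for TEAD, after seeing the data, and 10 kb or 1 Mb neighbours 2.25 or 61.6%.

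The H3K27ac difference at the members was 7.69 points and 2.81 with lists of equal length, the latter not computed over all p-JUN regions. The H3K4me3 difference of −0.0938 turned to 0.199 with −log10 q of at least 10 in all lists, 0.152 with it in the soft lists, 0.375 within 1 kb and −0.657 to 0.469 without 1 library. The H3K27me3 difference turned to −0.188 with lists of equal length and ran from −0.188 to 1.13 without 1 library. With the replicate number as a block they were −0.0938 and 0.469, as without pairing. Without H3K4me3 soft replicate 2 that difference was 0.281 and without stiff replicate 2 0.469, and the H3K27me3 value of −0.188 was also that without its soft replicate 1. Each reversed difference had an exact permutation p of 0.667 or 1.0.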
